A study of Rattus norvegicus with 4 samples.

Results

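Cadherins and protocadherins were followed in CG4 cells, a rat oligodendroglial progenitor line, with and without added Phf8, a histone lysine demethylase. Members were all rows of the deposited table whose gene name fits the symbols of the numbered cadherins (Cdh), cadherin-related genes (Cdhr), protocadherins (Pcdh), Fat1 to Fat4, Dchs and Celsr, which gave 52 of 14410 listed genes. All 52 passed the filter on low values. RNA-seq had been done on 4 libraries of wild-type CG4 cells, 2 per group. The ctrl cells carried a retrovirus with GFP alone behind the CAG promoter, and the Phf8oe cells one with Phf8 and GFP behind the same promoter; both groups were sorted for GFP, expanded and kept for 3 days in medium that induces oligodendrocyte differentiation. The replicates are named biological in the labels, but they do not say whether each came from its own transduction, so p-values measure the spread between these preparations only.

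Cadherins are membrane proteins whose extracellular repeats bind each other in the presence of calcium, mostly between like molecules on neighbouring cells. Classical cadherins (types I and II) link to actin through catenins. Protocadherins lack the catenin-binding tail and act mainly in recognition between neural cells, and the clustered protocadherins give single neurons their own surface identity. The large Fat, Dachsous and Celsr proteins serve tissue growth control and planar cell polarity, the alignment of cells within a sheet. In the oligodendrocyte lineage, N-cadherin (Cdh2) has been linked to contact between the cell and the axon.

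Among the members, 1 change was far larger than the rest: Cdh4, encoding R-cadherin, fell to 13.7% of its ctrl level. Cdh22 and Fat3 also fell, by 2.59-fold and 2.69-fold, and Cdh11 and Dchs1 rose, by 1.89-fold and 2.14-fold. The other 47 members did not pass the test, and Cdh2 stood at almost the same level in all 4 libraries. A gene was called when its Benjamini-Hochberg adjusted p over all 14368 tested genes was under 0.05 in limma, a linear model with variances shared across genes, on log2(value + 1). By this rule 5 of 52 members (9.62%) were called, against 7.64% of all genes. In the lower direction 3 members (5.77%) were called against 4.65% of all genes, and in the higher direction 2 members (3.85%) against 2.99%. Those shares lay close to the background. The 2 groups did not overlap for 31 of 52 members (59.6%, against 57.6% of all genes), with 21 lower (40.4% against 28.7%) and 10 higher (19.2% against 28.9%). Outside the beta protocadherins, a cluster of neighbouring genes taken up below, 12 of 38 members were lower without overlap (31.6%) and 9 higher (23.7%). The split of calls over all genes was 430 higher and 668 lower, and 608 higher and 589 lower with upper quartile scaling; that of the members was the same in both.

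The called count rested on the libraries. It was 1 of 52 without ctrl replicate 1 and also without ctrl replicate 2, 16 without Phf8oe replicate 1 and 12 without Phf8oe replicate 2. These are 1.92%, 1.92%, 30.8% and 23.1% of the members, and the calls over all genes moved the same way in these fits, to 0.0974%, 1.11%, 12.2% and 14.6%. Cdh4 was called in each of these fits, in which the lone library of a group is assumed to vary like the other group. Cdh11, Dchs1, Fat3 and Cdh22 lost their calls without either ctrl library (highest limma adjusted p of 0.159, 0.271, 0.297 and 0.204).

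**Figure D1:**
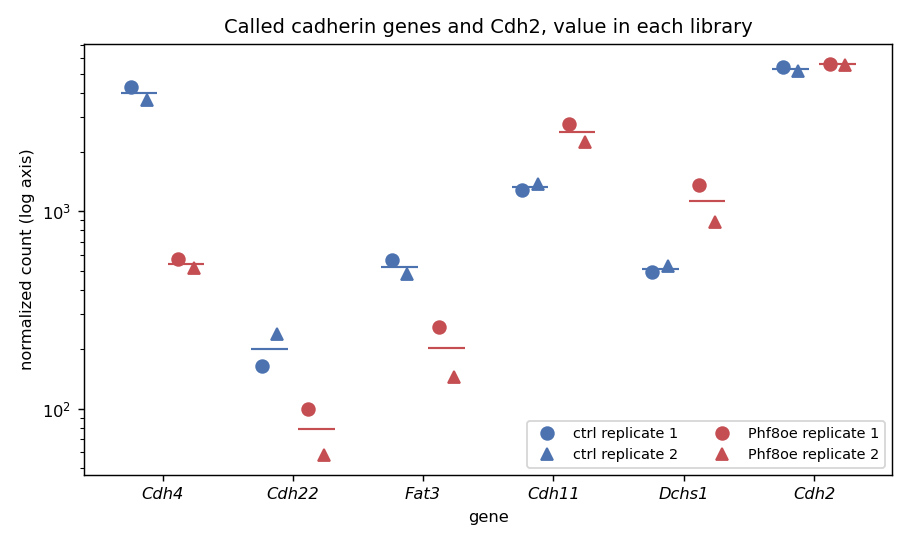
Normalized counts (log axis) of the 5 called members and Cdh2 in each library; circles are replicate 1, triangles replicate 2, and horizontal lines the group means. Cdh4, Cdh22 and Fat3 are lower in both Phf8oe libraries, Cdh11 and Dchs1 are higher, and the Cdh2 values lie between 5169 and 5617.

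Type I classical cadherins are the strongly adhesive members that include N-cadherin. Cdh4, a cadherin of the developing retina and brain, had 4251 and 3678 normalized counts in the ctrl libraries but 573 and 514 in the Phf8oe libraries. Both Phf8oe libraries lay far below both ctrl libraries, and the replicates of a group differed by at most 1.16-fold. This was a 7.27-fold fall (limma adjusted p = 3.12e-05, with 2 libraries in each group), or -2.86 on the log2 scale (SE 0.12), and the smallest p of all genes. Cdh4 ranked number 11 of all tested genes from the most negative log2 fold change. With 1 library left out at a time, its log2 fold change stayed between -2.97 and -2.76.

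Cdh2 stood at 5409 and 5169 normalized counts in ctrl and at 5617 and 5546 in Phf8oe. The Phf8oe values were slightly higher without overlap, but the log2 fold change was only 0.08 (SE 0.1) and did not pass (limma adjusted p = 0.645). Set against Cdh2 of the same library, Cdh4 came to 78.6 and 71.2 counts per 100 Cdh2 counts in ctrl and to 10.2 and 9.27 in Phf8oe. This ratio does not depend on the scaling of the libraries, although its size also reflects the unequal lengths of the transcripts. Cdh15, the M-cadherin of muscle, was a low gene with 40 and 40 normalized counts in ctrl and 106 and 58 in Phf8oe. Its log2 fold change of 0.95 (SE 0.34) did not pass (limma adjusted p = 0.114), and the Phf8oe libraries differed from each other by 1.83-fold.

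Type II classical cadherins, which sort neurons and mesenchymal cells by type, held 9 members. Of these, 7 had a log2 fold change above 0 and 2 below, with a median of 0.24 against 0.00 for all genes. Cdh11, a cadherin of mesenchymal and neural crest-derived cells, had 1276 and 1377 normalized counts in ctrl and 2789 and 2241 in Phf8oe. The groups were well apart, and the log2 fold change was 0.91 (SE 0.13, limma adjusted p = 0.0065). Cdh22, a cadherin of pituitary and brain, moved the other way, from 164 and 238 to 99 and 58 normalized counts. All 4 values were low and the replicates were 1.45-fold and 1.71-fold apart, but the groups did not overlap (log2 fold change -1.37, SE 0.31, limma adjusted p = 0.0363). The call of Cdh22 was also lost without robust variance moderation (limma adjusted p = 0.0584) and with the replicate number as a block (0.106).

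The remaining type II genes did not pass. Cdh20 had 7962 and 9593 normalized counts in ctrl and 10304 and 10281 in Phf8oe, close to 1.18-fold higher on the fitted scale (limma adjusted p = 0.227). Cdh24 went from 386 and 425 to 678 and 476, again without overlap, at a log2 fold change of 0.49 (SE 0.19, limma adjusted p = 0.142). Cdh6, or K-cadherin, had 931 and 851 in ctrl and 1480 and 915 in Phf8oe, so that only Phf8oe replicate 1 stood clear of the ctrl range. Cdh19, known from Schwann cell precursors, showed the opposite order, with 1698 and 1306 in ctrl and 1200 and 1930 in Phf8oe, and the groups overlapped. Cdh8, Cdh10 and Cdh18 had no value over 109 in any library, and their log2 fold changes were 0.15, 0.30 and -0.90. Cdh18 was at 4 in Phf8oe replicate 2 but stood at 18 in Phf8oe replicate 1, within the ctrl range of 14 to 21.

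**Figure D2:**
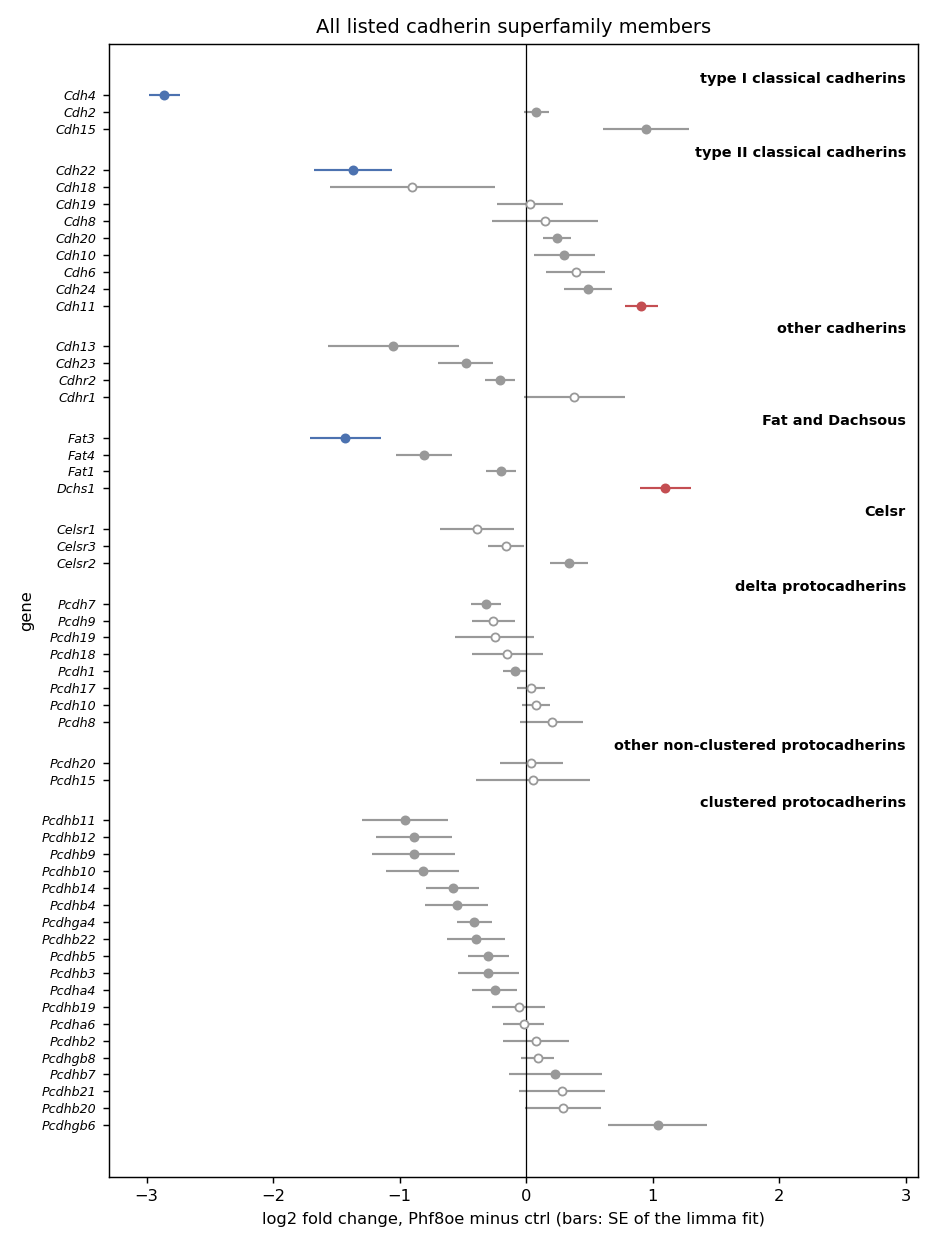
Log2 fold change (Phf8oe minus ctrl) of all 52 members by class; bars are standard errors of the limma fit, blue and red points were called lower and higher, grey points were not called, and open points mark members whose groups overlap. Cdh4 stands alone at -2.86, and most other members lie between -1 and 1.

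Fat and Dachsous proteins are giant cadherins, and Dachsous 1 on a cell binds Fat4 on its neighbour. Here the ligand rose: Dchs1 had 493 and 531 normalized counts in the ctrl libraries, against 1361 and 886 with added Phf8. Both Phf8oe values exceeded both ctrl values, though they differed from each other by 1.54-fold (log2 fold change 1.10, SE 0.20, limma adjusted p = 0.0242). With the replicate number as a block its limma adjusted p was 0.0537. Its receptor gene Fat4 had 207 and 175 in ctrl against 119 and 98 in Phf8oe. That difference, without overlap, did not pass (log2 fold change -0.81, SE 0.22, limma adjusted p = 0.0583), but did with total scaling (0.0479), with limma-voom on estimated reads (0.0472) and without Phf8oe replicate 1 (0.0214).

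Fat3, which shapes dendrites of retinal neurons, fell from 564 and 484 normalized counts to 260 and 144. The ctrl values were close together and the Phf8oe values 1.81-fold apart, with replicate 2 the lower (log2 fold change -1.43, SE 0.28, limma adjusted p = 0.0302). Fat1, a regulator of actin and of growth signalling, had 11242 and 12944 in ctrl and 11197 and 9872 in Phf8oe. Its groups barely separated, and the log2 fold change of -0.20 (SE 0.12) did not pass (limma adjusted p = 0.309).

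Celsr proteins join cadherin repeats to a receptor with a bundle of membrane-spanning helices and act in planar cell polarity and axon tracts. limma called none of the 3 (none also at an unadjusted p under 0.05, and none by limma-voom). Celsr2 had 2618 and 3271 normalized counts in ctrl and 4138 and 3308 in Phf8oe, at limma adjusted p = 0.197 (log2 fold change 0.34, SE 0.15). Celsr1 differed between the Phf8oe libraries, with 1047 and 1865 against 1748 and 1907 in ctrl. Celsr3 had 2469 and 2233 in ctrl and 2421 and 1832 in Phf8oe, and its groups overlapped. Celsr3 overlaps Slc26a6 in the GRCr8 annotation, and since no source used here says whether strand was used in counting, reads of such pairs may not be separable.

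Among the other cadherins, T-cadherin (Cdh13), which is held to the membrane by a lipid anchor and lacks a cytoplasmic tail, had the widest spread. It stood at 1587 and 1217 normalized counts in ctrl and at 1047 and 430 in Phf8oe. The groups did not overlap, but the Phf8oe values differed by 2.43-fold, and the log2 fold change of -1.05 (SE 0.52) did not pass (limma adjusted p = 0.315). Without Phf8oe replicate 1 Cdh13 was called (-1.69, limma adjusted p = 6.72e-06), and without Phf8oe replicate 2 its log2 fold change was -0.41. Cdhr2, known from the brush border of the gut, had 2756 and 2465 in ctrl and 2427 and 2081 in Phf8oe, a difference that did not pass (limma adjusted p = 0.281). Cdh23 and Pcdh15 form the tip links of sensory hair cells. Cdh23 stood at 209 and 195 in ctrl and 124 and 168 in Phf8oe, at a log2 fold change of -0.48 (SE 0.22, limma adjusted p = 0.207); it overlaps Psap and Vsir, and Vsir was itself called lower (log2 fold change -0.62). Pcdh15 had 1301 and 1257 in ctrl, nearly equal, but 1989 and 884 in Phf8oe, on both sides of the ctrl values. Pcdh20 had 619 and 772 in ctrl and 909 and 552 in Phf8oe, spread in the same way. Cdhr1, a photoreceptor cadherin, had at most 31 in any library.

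Delta protocadherins, the non-clustered ones with conserved motifs in the cytoplasmic tail, held 8 members. limma called none of them (1 had an unadjusted p under 0.05, and limma-voom called none), and their log2 fold changes lay between -0.32 and 0.20. Pcdh17 had 7389 and 8300 normalized counts in ctrl and 8532 and 7571 in Phf8oe, so the groups overlapped throughout. Pcdh7 had 6706 and 5577 against 5285 and 4556, lower in both Phf8oe libraries (log2 fold change -0.32, SE 0.12, limma adjusted p = 0.144). Pcdh1 had 5424 and 5347 against 5124 and 4977. It was the most evenly measured member of the class, its replicates differing by at most 1.03-fold, and its log2 fold change was -0.09 (SE 0.09). Pcdh8, which takes N-cadherin off the surface of neurons, had 1007 and 1049 in ctrl and 1534 and 906 in Phf8oe, on both sides of ctrl. Pcdh10 had 1582 and 1463 against 1568 and 1644, and Pcdh9 had 960 and 782 against 827 and 634. Pcdh19, a partner of N-cadherin, and Pcdh18 had no value over 62.

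The clustered protocadherins comprise the alpha, beta and gamma clusters, side by side on 1 chromosome. Alpha and gamma isoforms each splice their own first exon to shared constant exons, and beta isoforms are single-exon genes with near copies of each other, so their counts depend on how reads shared by several of them were assigned, which no source used here states. limma called none of the 19 (7 had an unadjusted p under 0.05, and limma-voom called none), and 13 of 19 had a log2 fold change below 0 (68.4%, against 49.6% of all genes). Of the alpha cluster, Pcdha4 had 541 and 393 in ctrl and 386 and 388 in Phf8oe, and Pcdha6 had 681 and 526 against 564 and 617. Of the gamma cluster, Pcdhga4 had 934 and 927 in ctrl and 771 and 634 in Phf8oe. Its ctrl values were nearly equal and both Phf8oe values lower (log2 fold change -0.41, SE 0.14, limma adjusted p = 0.0971). Pcdhgb8 had 2235 and 2394 against 2767 and 2203, and the low gene Pcdhgb6 had 13 and 12 against 23 and 31.

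The promoters of the beta cluster share a short element. Single promoters in these clusters are chosen by each neuron with help of the DNA-binding protein CTCF, which contacts a conserved element near the start of the isoforms. Promoter windows of 300 bases (250 before and 50 after the start) were in the RefSeq table for 12 of the 14 measured beta members, on assembly GRCr8. All 12 held the letters GTGGCGCT. Over both strands these letters occurred in 1.11% of all 33469 windows and in 1 of the 29 other members with a window, Cdh15. The windows of the alpha and gamma members Pcdha4, Pcdhga4 and Pcdhgb8 did not hold them. Whether the letters belong to the element that CTCF contacts was not tested. A match describes the letters only and is not evidence of binding. Since all 12 windows held the letters, their presence could not sort these members by direction. They stood in the windows of Pcdhb2, Pcdhb7, Pcdhb20 and Pcdhb21 (log2 fold changes 0.08, 0.23, 0.29 and 0.28) as well as in those of members below 0. The stretches are shown because they are what these members have in common beyond their name. Each is 30 bases, 5′ to 3′ on the plus strand, in the order of the genes along the chromosome, with the shared letters in capitals.
Pcdhb2 (chr18:29279921-29279950): aaaagaacgcaggGTGGCGCTgcagcctca
Pcdhb3 (chr18:29285602-29285631): aaatgaacgcatgGTGGCGCTgttgactaa
Pcdhb4 (chr18:29292209-29292238): ataaggacgcttgGTGGCGCTgcaggctaa
Pcdhb5 (chr18:29302402-29302431): atatgaacgcaggGTGGCGCTgcaggctaa
Pcdhb7 (chr18:29328996-29329025): aagtggacgcaggGTGGCGCTgcaggctaa
Pcdhb9 (chr18:29379246-29379275): aaaaagacacaggGTGGCGCTgcaggctaa
Pcdhb10 (chr18:29391776-29391805): aaagggacgcgtgGTGGCGCTgtctactaa
Pcdhb12 (chr18:29413646-29413675): ataaggacgcttgGTGGCGCTgcaggctaa
Pcdhb14 (chr18:29431807-29431836): aacagaacgcttgGTGGCGCTgcaggctaa
Pcdhb19 (chr18:29478762-29478791): gtgaagacacatgGTGGCGCTgcaggataa
Pcdhb20 (chr18:29485808-29485837): acagagacacatgGTGGCGCTgtaggataa
Pcdhb21 (chr18:29492147-29492176): gcatagtcacatgGTGGCGCTgcaggatag
The shared letters began between 45 and 97 bases before the annotated start. Pcdhb11 and Pcdhb22 were not among the windows.

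Summed over the 14 beta members, normalized counts came to 2574 and 2273 in the ctrl libraries and to 2040 and 1651 in the Phf8oe libraries. The sums were thus lower in both Phf8oe libraries, and 10 of the 14 genes had a log2 fold change below 0, with a median of -0.35 (0.00 for all genes). Groups did not overlap in the lower direction in 9 of 14, or 64.3%, against 28.7% of all genes. These neighbouring near copies cannot be read as 14 independent measurements. The sums also differed within each group, with replicate 2 the lower. In ctrl 11 of the 14 genes were lower in replicate 2 (78.6%, against 49.1% of all genes), and in Phf8oe also 11 (78.6%, against 48.5%). Along the chromosome, the 5 lowest log2 fold changes stood next to each other: Pcdhb9, Pcdhb10, Pcdhb11, Pcdhb12 and Pcdhb14, which follow each other among the measured genes, had log2 fold changes of -0.89, -0.82, -0.96, -0.89 and -0.58. This run was picked after its values were seen. The nearest measured neighbours on the outer sides, Pcdhb7 and Pcdhb19, stood at 0.23 and -0.06. The run is not sharply set off in size, since Pcdhb4, outside it, had a log2 fold change of -0.55, close to that of Pcdhb14, also without overlap between the groups.

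Within the run, Pcdhb14 had 361 and 277 normalized counts in ctrl and 235 and 190 in Phf8oe. Pcdhb12 had 139 and 95 against 73 and 52, and Pcdhb11 had 108 and 76 against 61 and 35. Pcdhb10 had 126 and 88 against 69 and 51, and Pcdhb9 had 47 and 62 against 34 and 24. In all 5 genes both Phf8oe values lay below both ctrl values, yet none passed on its own (limma adjusted p between 0.0975 and 0.129). Because the groups did not overlap, leaving out 1 library could not change the sign of any of the 5. In those fits their log2 fold changes lay between -1.35 and -0.39. Of the 5, 4 also differed alike between the ctrl libraries: the log2 ratio of ctrl replicate 2 to replicate 1 was -0.51 for Pcdhb10, -0.50 for Pcdhb11, -0.54 for Pcdhb12 and -0.38 for Pcdhb14, and 0.39 for Pcdhb9. These genes cannot be read as independent measurements.

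Outside the run, Pcdhb4 had 536 and 505 normalized counts in ctrl and 464 and 272 in Phf8oe, and was lowest in Phf8oe replicate 2. Pcdhb5 had 635 and 581 against 546 and 443, and Pcdhb3 had 95 and 93 against 78 and 74. Pcdhb22 had 158 and 138 against 102 and 122, lower in both Phf8oe libraries as well. Pcdhb2, Pcdhb19, Pcdhb20 and Pcdhb21 overlapped between the groups, and Pcdhb7 stood at 19 and 18 against 24 and 20. Of the genes examined near the clusters, none was called: the log2 fold changes were 0.27 for Taf7, -0.03 for Slc25a2, 0.13 for Diaph1, 0.17 for Hdac3, 0.09 for Fchsd1 and 0.79 for the low gene Arap3.

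**Figure D3:**
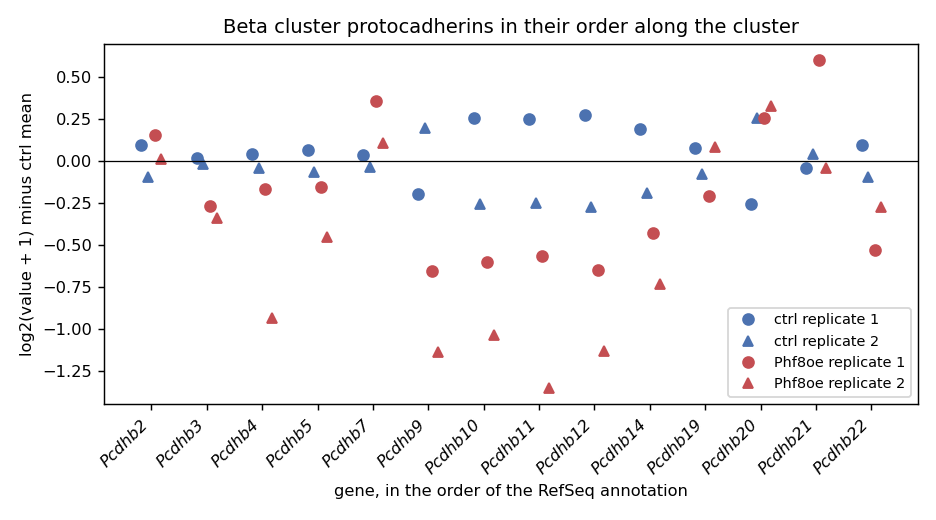
Log2(value + 1) minus the ctrl mean of each measured beta protocadherin, in the order of the RefSeq annotation; circles are replicate 1 and triangles replicate 2. From Pcdhb9 to Pcdhb14 both Phf8oe libraries lie below both ctrl libraries, while Pcdhb2, Pcdhb19, Pcdhb20 and Pcdhb21 overlap.

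The members varied more between the Phf8oe libraries than most genes did. The median absolute log2 difference between the Phf8oe replicates was 0.32 over the members and 0.17 over all genes, against 0.18 and 0.14 between the ctrl replicates. Of 52 members 41 (78.8%) were lower in Phf8oe replicate 2 than in replicate 1, against 48.5% of all genes. The same share was 65.4% of members and 49.1% of genes for ctrl replicate 2 against replicate 1. The largest differences were seen for Cdh13 and Pcdh15 and for the low gene Cdh18, which were 2.43-fold, 2.25-fold and 4.5-fold lower in Phf8oe replicate 2, while Celsr1 and Cdh19 were higher there. Cdh4 differed between the Phf8oe libraries by 1.11-fold. Phf8oe replicate 2 was the library with the fewest estimated reads, 28400000 against 39300000 to 47800000 in the others, and the one with more Phf8, 10796 normalized counts against 5650 in Phf8oe replicate 1. Phf8 stood at 2026 and 2205 in ctrl and did not pass (limma adjusted p = 0.0631). The part of depth and of the Phf8 level in these differences was not tested.

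**Figure D4:**
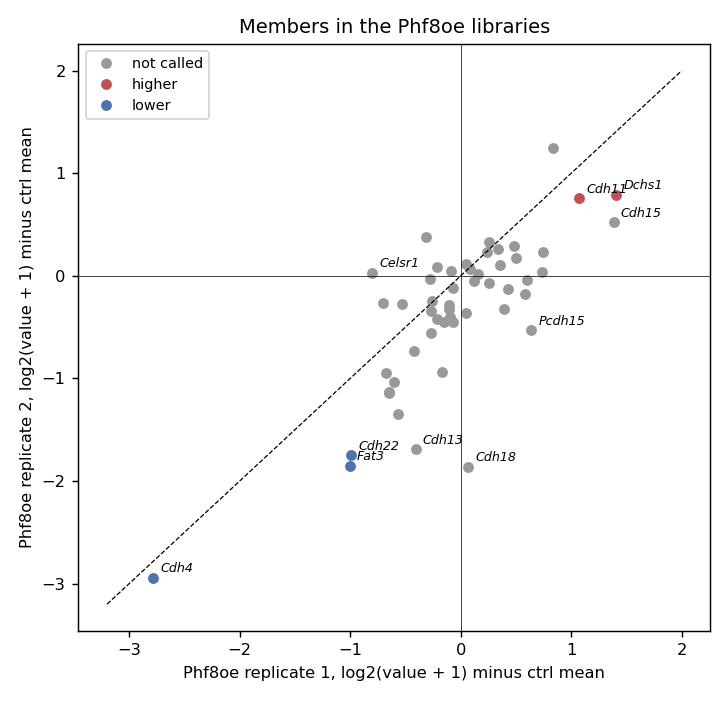
Each member's log2(value + 1) minus the ctrl mean in Phf8oe replicate 1 (x axis) and replicate 2 (y axis); the dashed line marks equal values, and both axes share the same ctrl mean. Points lie below the dashed line for 41 of 52 members, and Cdh4 lies near it.

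Partner genes were read from the same fit. Of 19 catenins and junction adaptors, 2 were called lower and none higher (10.5%, against 7.64% of all genes in either direction and 4.65% lower; median log2 fold change 0.02). Tjp1, the scaffold ZO-1 of cell junctions, fell from 8345 and 8134 normalized counts to 5801 and 5842, and Iqgap1, a scaffold at the actin cortex, from 3463 and 2973 to 2284 and 2373. Both fell by similar amounts, 1.42-fold and 1.38-fold (limma adjusted p = 0.0184 and 0.0383). Neither call held without ctrl replicate 1 (limma adjusted p = 0.239 and 0.388) or without ctrl replicate 2 (0.116 and 0.105), or with the replicate block (0.0646 and 0.0952), and Iqgap1 was not called without robust moderation (0.0598). No catenin gene was called. Of 4 other genes of the cadherin superfamily, the calsyntenin gene Clstn2 was called, going from 51 and 33 normalized counts to 1 and 4. At such low values its log2 fold change depends on the pseudocount, -3.73 with 1 and -2.65 with 5, and leaving out either ctrl library ended the call (highest limma adjusted p = 0.202). The desmosomal cadherin genes of that list were not among the rows analysed here.

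In the list of Fat, Dachsous and Celsr pathway partners 5 of 21 genes were called, 3 lower and 2 higher (23.8% against 7.64% of all genes, with 14.3% lower against 4.65% and 9.52% higher against 2.99%; median 0.03). Prickle1 and Prickle2, cytoplasmic planar polarity proteins, went opposite ways. Prickle1 rose from 978 and 1306 normalized counts to 3107 and 2343, by 1.25 on the log2 scale (SE 0.19; limma adjusted p = 0.0146). Prickle2 fell from 796 and 725 to 450 and 484, by 1.63-fold (limma adjusted p = 0.0211). Fzd3, the Frizzled receptor that works with Celsr proteins in axon tracts, fell from 910 and 815 to 432 and 466, by 1.92-fold (limma adjusted p = 0.0076). Of the transcriptional effectors of the Hippo growth control pathway, Tead1 fell from 460 and 400 to 161 and 204, and Wwtr1 rose from 359 and 408 to 551 and 658 (limma adjusted p = 0.00897 and 0.0418). All 5 calls separated the groups without overlap, but only that of Prickle1 held without ctrl replicate 2, and none held without ctrl replicate 1 (highest limma adjusted p over the 5 genes 0.355, for Wwtr1, whose call was also lost without Phf8oe replicate 2, at 0.0768, and without robust moderation, at 0.062). The replicate block ended the calls of Prickle1 (0.0561), Prickle2 (0.0676) and Wwtr1 (0.0817).

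limma called none of 7 transcriptional repressors of classical cadherins (limma-voom called none either), Zeb2 standing at 8885 and 7609 against 6215 and 6835 normalized counts (limma adjusted p = 0.1) and Tcf3 at 5502 and 5384 against 5721 and 5797 (0.626). In that list 3 genes had an unadjusted p under 0.05, Zeb1, Zeb2 and the low gene Twist2. Of 15 genes for cadherin cleavage 2 fell (13.3% against 4.65% of all genes), both calpains, which cut proteins inside the cell: Capn2 from 8123 and 7987 to 4712 and 5070, and Capn1 from 1660 and 1576 to 965 and 1165 (limma adjusted p = 0.00578 and 0.0256). Both calls were lost without either ctrl library (highest limma adjusted p of 0.148 and 0.282), and that of Capn1 with the replicate block (0.0709). The sheddase gene Adam10 had 5434 and 4389 against 3502 and 3878 and was not called (limma adjusted p = 0.078). Of 16 regulators of the clustered protocadherins 3 fell (18.8% against 4.65% of all genes). Among them were Wapl, which releases cohesin from DNA, from 2681 and 2707 to 2010 and 2091, and the cohesin subunit gene Stag2, from 3354 and 3434 to 2553 and 2673. Both lay just under the threshold (limma adjusted p = 0.0458 and 0.0496), and both calls were lost without either ctrl library (highest 0.338 and 0.336) and without Phf8oe replicate 1 (0.0597 and 0.067). They were also lost with upper quartile scaling (0.062 and 0.0668), without robust moderation (0.0598 and 0.0629) and with the replicate block (0.112 and 0.116). Of the 15 partners of non-clustered protocadherins and WAVE complex genes limma called none (3 had an unadjusted p under 0.05, and limma-voom called none). The WAVE complex nucleates actin, and of its subunit genes Nckap1 had 14589 and 14475 against 13840 and 12566, and Cyfip2 24661 and 25730 against 24581 and 23776.

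Cell type markers were checked against the label. Oligodendrocyte genes were abundant, Mbp at 184442 and 173338 normalized counts in ctrl and 340486 and 308875 in Phf8oe, and their list sum over 11 of 12 genes ran from 454356 to 461598 in ctrl and 655424 to 710958 in Phf8oe. Progenitor genes (8 of 9 listed) summed to between 117283 and 117763 in ctrl and between 91947 and 105545 in Phf8oe. Among them Pdgfra and Sox6 were called lower (25% of the list, against 4.65% of all genes) and none higher. The list did not fall as a whole: Gpr17, Olig1 and Olig2 had log2 fold changes of 0.38, 0.23 and 0.36, not called. Of the astrocyte list 8 of 10 were listed, with sums of 111060 to 116236 in ctrl and 45542 to 54373 in Phf8oe; Aqp4 and Gjb6 were not among the rows. Gfap had 79141 and 80736 in ctrl and 10834 and 19613 in Phf8oe, and the other 7 genes summed to 31919 and 35500 in ctrl and to 34708 and 34760 in Phf8oe. Of those 7, Aldh1l1 (9 and 10 against 32 and 44) and Slc1a3 (1063 and 1192 against 1614 and 1692) were called higher. The calls in the higher direction were 25% of the 8 listed genes, against 2.99% of all genes. Slc1a2 (30 and 58 against 16 and 25) and Gja1 (93 and 119 against 49 and 78) were lower without overlap, not called. S100b, Sox9 and Aldoc had log2 fold changes of -0.18, -0.1 and 0.14, not called. Of the neuronal list 12 of 13 were listed, 10 of them below 0 (83.3%, against 49.6% of all genes). Their sums were 23420 to 29110 in ctrl and 16204 to 16875 in Phf8oe. Nefm was called lower (4142 and 2665 against 869 and 1201), or 8.33% against 4.65% of all genes. The 2 genes above 0, Map2 and Elavl4, had log2 fold changes of 0.07 and 0.25, not called. Rbfox3, Snap25, Nefh, Slc17a7, Gad1 and Gad2 had no value over 51. Schwann cell and neural crest genes (9 of 10) summed to between 115713 and 136244 in ctrl and between 129225 and 135661 in Phf8oe. Of the other lists, the rows held 2 of 10 genes for fibroblasts and pericytes, 5 of 9 for endothelium (without Cdh5 and Pecam1), 1 of 7 for epithelium (without Cdh1) and 3 of 9 for microglia. The part of these shifts in the cadherin results was not tested, and in bulk RNA fewer cells of a type and less RNA per cell cannot be told apart.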

How the data were processed

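Gene expression of 4 libraries was taken from the table the authors deposited. The tools named in the submitters' processing notes are bcl2fastq 2.20, Trimmomatic 0.36, STAR 2.5.2b and DESeq2, and the builds are given as rn6 and Rnor_6.0. The program that counted genes, the annotation release and the strand setting are not stated there. Although the labels speak of raw counts, the signal deposited by the authors is a normalized count: between 10 and 300, all 85 whole numbers that a library of scaled reads would pass over were missing from Phf8oe replicate 2. In ctrl replicate 2 there were 5 such numbers, all missing, and ctrl replicate 1 and Phf8oe replicate 1 had none to check. The spacing was estimated from these same values. The spacing gave 28400000 to 47800000 estimated reads per library behind totals of 39945215 to 41149255. Because the values are scaled, no count model was used as the main test. Genes with at least 10 in at least 2 libraries were tested with limma 3.58.1 (R 4.3.3). Values were taken as log2(value + 1), which shrinks the fold changes of low genes, with robust moderation and a variance trend, two-sided, with p-values adjusted by Benjamini-Hochberg over 14368 genes at 0.05. The procedure was tested on simulated data. Alternatives covered scaling, filters, pseudocounts of 0.5 and 5, moderation, limma-voom on estimated reads, a replicate block and leaving out each library.

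The members, gene lists and tests were chosen with earlier results of these data known. Values are given for Cdh4, every called member and the 3 members per class with the highest values; further members, the beta cluster run and flanking genes were chosen after their values were seen. From each partner list, called genes were named, up to 6, or the 2 with the highest values, except for 1 gene that is not reported here; Twist2, Zeb1 and Adam10 stand outside this rule and were named after their values were seen. Symbols matched the RefSeq GRCr8 gene table for 50 of 52 members and the promoter table for 41. GRCr8 is not the build of the counts, so it was used for names, order, overlaps and promoter sequence only.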

Additional observations from a re-analysis of the deposited data

How the results depend on the processing

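Cdh4 was called under all alternatives but 1: without a variance trend limma called 0 members and 0 genes, with 15 members and 3133 genes at an unadjusted p under 0.05, and limma-voom on estimated reads called 6 members. The labels do not say whether equal replicate numbers pair the samples. The replicate deviations of the groups did not run together (correlation -0.126), which cannot show whether the samples were paired. The replicate block gave 3 called members and 373 genes. Crossed pairing, added after this correlation was seen, gave 8 and 2354. Leaving out each library in turn, the members called ranged from 1 to 16 and the genes from 14 to 2103. Scaling, filters, pseudocounts, robust moderation and voom left 4 to 6 members called.

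No called member changed sign. Leaving out 1 library could not have done this, because the groups of the called members did not overlap. Signs changed in 15 members that were not called. Leaving out single libraries, log2 fold changes ranged from -0.53 to 0.64 for Pcdh15, -0.05 to 0.12 for Pcdh17, -1.86 to 0.06 for Cdh18, -0.18 to 0.58 for Pcdh8, -0.32 to 0.39 for Pcdh20, -0.05 to 0.82 for Cdhr1, -0.21 to 0.17 for Pcdha6, -0.8 to 0.03 for Celsr1, -0.07 to 0.26 for Pcdhgb8, -0.31 to 0.37 for Cdh19, -0.04 to 0.6 for Pcdhb21, -0.21 to 0.09 for Pcdhb19, -0.01 to 0.18 for Pcdhb2, -0.36 to 0.04 for Celsr3 and -0.23 to 0.53 for Cdh8. Pcdha6 was 0.02 with upper quartile scaling and Cdh19 -0.02 with limma-voom. The cause of these changes was not tested. With 2 libraries per group, members with few counts, such as Cdh18 and Cdhr1, could not be placed in a direction. The same holds for abundant members among these 15, such as Pcdh17 with 7389 to 8532 normalized counts.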
